A study of Mus musculus with 12 samples.

Results

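The genes described here are Nfe2l2, which encodes the transcription factor Nrf2, and 9 genes that are classical targets of it or work beside it: Hmox1, Nqo1, Gclc, Gclm, Txnrd1, Srxn1, Slc7a11, Osgin1 and Sqstm1. They were found by symbol in the deposited gene table, where all 10 occur once among 31208 genes. The table holds brain RNA of 12 C57BL/6 mice of 8 weeks, 4 in each of 3 groups, read as long nanopore reads of PCR-amplified full-length cDNA. Sham mice were compared with mice 6 h into cerebral ischemia by MCAO (occlusion of the middle cerebral artery), which had received either the vehicle, sterile saline, or lactate into the cerebral ventricle (i.c.v.) the day before surgery. The labels name lactate without its form, the methods name D-lactate, and neither states whether sham mice received an injection. According to the methods, mice were male and those in which the occlusion did not succeed were left out. The labels name the tissue as brain, without giving the hemisphere or region. Each group holds mice numbered 1 to 4, and the labels do not say whether same-numbered mice were handled together.

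Nrf2 is held at a low level by Keap1, which hands it over for degradation, and it accumulates when reactive electrophiles or oxidants modify Keap1. It then pairs with a small Maf protein and binds antioxidant response elements (ARE) near genes for glutathione synthesis, thioredoxin recycling, quinone reduction and heme breakdown. In brain this response is best known from astrocytes, and Hmox1 in particular also follows other signals, since the repressor Bach1 and stress-activated factors act on it.

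The sequences next to the gene starts are shown first, because the ARE is the feature by which these genes are grouped. RefSeq start sites on GRCm38.p6 gave windows from 250 bases before to 50 bases after the start for 8 of the 10 genes, 10 windows in all, of which 3 belong to Txnrd1. Hmox1 and Gclc had no entry. Both strands were searched for the ARE core TGACNNNGC, its variant TGAGNNNGC and the AP-1 motif TGANTCA, and the last overlaps the ARE variant wherever the letters read TGAGTCAGC. The windows below are read on the strand of the gene, 5′ to 3′, end 30 bases before the start, and carry the matches in capitals. They were chosen for one called gene with several matches (Srxn1), genes with matches at a single place (Osgin1 and Slc7a11) and one with no match and no measured difference (Sqstm1). Because the choice used the measured differences, the printed windows cannot show whether matches and differences go together.
Srxn1, chr2:152105274-152105493, plus strand: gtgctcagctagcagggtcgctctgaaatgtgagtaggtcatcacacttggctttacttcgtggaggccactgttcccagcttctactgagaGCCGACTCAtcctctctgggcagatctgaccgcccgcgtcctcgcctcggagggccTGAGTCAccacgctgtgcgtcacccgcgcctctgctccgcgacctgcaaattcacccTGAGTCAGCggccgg
Osgin1, chr8:119436897-119437116, plus strand: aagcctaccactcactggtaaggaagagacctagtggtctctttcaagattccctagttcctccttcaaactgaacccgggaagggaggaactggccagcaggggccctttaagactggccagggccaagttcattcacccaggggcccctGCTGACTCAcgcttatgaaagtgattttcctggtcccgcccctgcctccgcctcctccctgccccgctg
Slc7a11, chr3:50443644-50443863, minus strand: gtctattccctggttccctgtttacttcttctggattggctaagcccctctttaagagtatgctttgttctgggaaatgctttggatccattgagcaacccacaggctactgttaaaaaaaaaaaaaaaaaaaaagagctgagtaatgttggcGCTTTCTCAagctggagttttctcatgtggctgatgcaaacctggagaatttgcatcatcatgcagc
Sqstm1, chr11:50210851-50211070, minus strand: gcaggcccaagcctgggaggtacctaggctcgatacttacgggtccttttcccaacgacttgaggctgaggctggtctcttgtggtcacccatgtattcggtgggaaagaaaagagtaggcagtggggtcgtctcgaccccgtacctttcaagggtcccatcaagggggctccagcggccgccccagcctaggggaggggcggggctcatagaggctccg

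The Srxn1 window held TGAGTCAGC beginning 45 bases before the start and TGAGTCA beginning 102 bases before it, both on the gene's strand, and TGAGTCGGC beginning 158 bases before it on the opposite strand. A further match, TGACCTAGC, lay after the start on the opposite strand. In the Osgin1 window TGAGTCAGC lay 99 bases before the start on the opposite strand, and the AP-1 match TGACTCA lay within the same letters on the gene's strand, 97 bases before it. In the Slc7a11 window TGAGAAAGC lay 97 bases before it, also on the opposite strand. Windows not printed held TGACGGTGC for Gclm, TGACTCCGC for Nfe2l2 and TGACAAAGC for 1 of the Txnrd1 windows, while the windows of Nqo1 and Sqstm1 held none of the motifs. Gclm, Nfe2l2 and Txnrd1 thus held the core, and none of them was called in any comparison. Either form of the ARE was found in 6 of the 10 windows, which come from 8 genes, and in 27.8% of all 32851 RefSeq windows of that length. A higher share among these genes is built into how they were grouped and is not a result of these data. The core alone was found in 12.4% of all windows, the variant in 17.6% and the AP-1 motif in 7.81%, and a match describes the letters only.

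All 10 genes are protein coding and lie, on GRCm38 with GENCODE release M21, at chr2:75675513-75704641 (Nfe2l2, ENSMUSG00000015839), chr8:75093621-75100589 (Hmox1, ENSMUSG00000005413), chr8:107388225-107403206 (Nqo1, ENSMUSG00000003849), chr9:77754535-77794485 (Gclc, ENSMUSG00000032350) and chr3:122245557-122270732 (Gclm, ENSMUSG00000028124). The others lie at chr10:82833951-82897712 (Txnrd1, ENSMUSG00000020250), chr2:152105516-152111376 (Srxn1, ENSMUSG00000032802), chr3:49892526-50443614 (Slc7a11, ENSMUSG00000027737), chr8:119434124-119446256 (Osgin1, ENSMUSG00000074063) and chr11:50199366-50210827 (Sqstm1, ENSMUSG00000015837). Sqstm1 overlaps Mrnip on the opposite strand, a gene with 626 counts over the 12 mice. Whether the counting used strand is not given in the sources used here.

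Total counts per mouse ranged from 6815920 to 10677224, and levels are given as CPM (counts scaled to the library total of that mouse). A count of 3, taken as the smallest that can be told from 0, corresponded to 0.281 to 0.44 CPM, and because reads without molecular identifiers are not independent molecules, this limit covers counting error alone. Neuronal, astrocytic and oligodendrocytic markers were present in every mouse. Vehicle mouse 2 stood apart by its choroid plexus markers, which summed to 1838 CPM against 1.36 to 19.3 CPM in the other 11 mice. Vehicle mouse 1 had the highest neuronal sum (5773 CPM) and the lowest microglial sum (119.1 CPM) of all 12 mice. Results against the vehicle group were therefore also computed without these mice.

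Hmox1, Srxn1, Gclc and Slc7a11 were the members called, each against sham, while Nqo1 and Osgin1 did not reach the filter there. Against sham, Hmox1 was 5.38-fold higher in vehicle-treated and 10.3-fold higher in lactate-treated ischemic brain, and Srxn1 was 1.88-fold and 2.42-fold higher. Gclc and Slc7a11 passed the test only in the comparison of lactate with sham, at 1.73-fold and 1.61-fold. The call of Slc7a11 was close to the threshold and was lost in 7 alternative runs. Between the ischemic groups no member passed, although Hmox1 was 1.90-fold higher with lactate and its groups did not overlap. A call here means a Benjamini-Hochberg adjusted p under 0.05 by edgeR's quasi-likelihood test, fitted on all genes with at least 1 CPM in at least 4 of the 8 mice compared, and a fold change of at least 1.5. In bulk tissue a smaller number of cells of a type and less RNA per cell cannot be told apart, and the same holds for a rise.

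**Figure D1:**
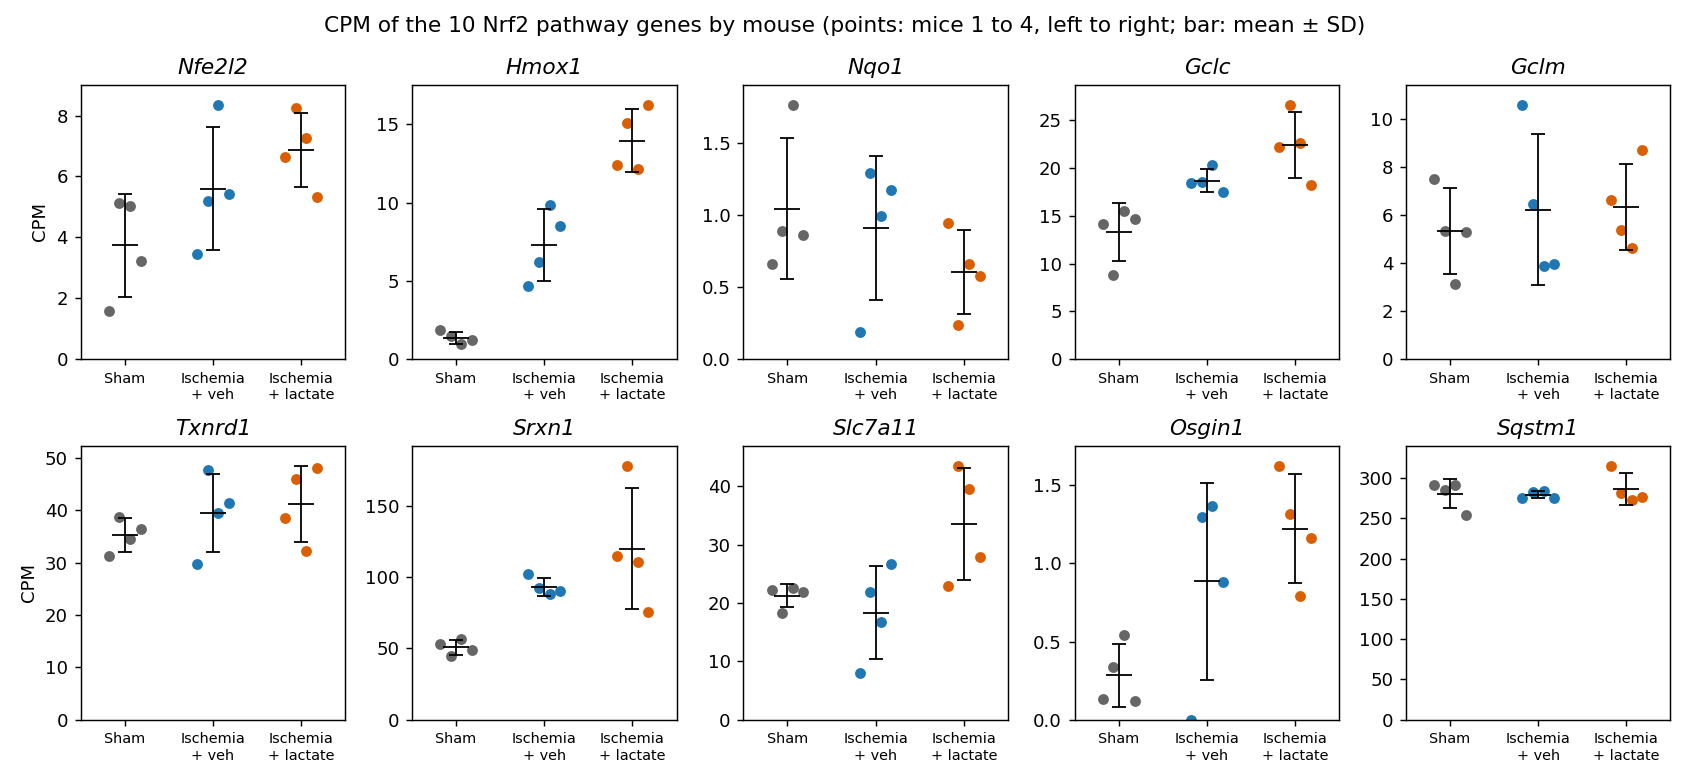
CPM (vertical axis, from 0, a scale of its own for each gene) of the 10 genes in each mouse, grouped as sham, ischemia with vehicle and ischemia with lactate. Points are mice 1 to 4 from left to right and bars are the mean ± SD (n = 4), and the 3 groups of Hmox1 are separate while those of Sqstm1 lie together near 280 CPM.

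Nfe2l2 itself was a low gene. Its CPM was 1.58, 5.13, 5.03 and 3.21 in the sham mice, 3.47, 5.18, 8.34 and 5.43 in the vehicle-treated mice, and 6.63, 8.26, 7.25 and 5.33 in the lactate-treated mice. Every lactate-treated mouse was above every sham mouse, but only narrowly, and the vehicle group overlapped both. The means were 3.74 ± 1.69, 5.60 ± 2.02 and 6.87 ± 1.23 CPM (SD, n = 4). The log2 fold change was 0.60 (SE 0.37, edgeR adjusted p = 0.51) for vehicle against sham and 0.89 (SE 0.31, edgeR adjusted p = 0.0818) for lactate against sham, so neither passed. These values rest on 12 to 69 counts per mouse. The transcript level does not measure the Nrf2 protein, which is regulated mainly by its degradation.

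Hmox1 encodes heme oxygenase-1, the inducible enzyme that opens the heme ring to biliverdin, iron and carbon monoxide. Sham mice had 1.85, 1.45, 0.951 and 1.23 CPM, from 7 to 14 counts each. Vehicle-treated mice had 4.68, 6.22, 9.83 and 8.51 CPM, and lactate-treated mice had 12.4, 15.1, 12.1 and 16.2 CPM. The 3 groups were stacked without overlap, and the lowest vehicle-treated mouse was mouse 1. Group means were 1.37 ± 0.378, 7.31 ± 2.30 and 13.97 ± 2.01 CPM (SD, n = 4). The log2 fold change was 2.43 (SE 0.32, edgeR adjusted p = 0.00147) for vehicle against sham and 3.36 (SE 0.24, edgeR adjusted p = 1.17e-06) for lactate against sham. For lactate against vehicle it was 0.93 (SE 0.24), which had an unadjusted edgeR p of 0.00245 but an adjusted p of 0.46 among 17419 genes. Without vehicle mouse 1 this last difference was 0.76, and without vehicle mice 1 and 2 it was 0.60 (SE 0.22, edgeR adjusted p = 0.643).

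Nqo1, the quinone reductase whose induction is often used to read Nrf2 activity, was near the limit of counting in all groups. It had between 2 and 13 counts per mouse and mean levels of 1.05 ± 0.491, 0.913 ± 0.499 and 0.606 ± 0.291 CPM (SD, n = 4) in sham, vehicle-treated and lactate-treated mice. It did not reach the filter in any comparison. The pooled counts of each group gave 1.03 CPM (95% exact Poisson interval 0.709 to 1.45) in sham, 0.842 CPM (0.56 to 1.22) with vehicle and 0.595 CPM (0.358 to 0.929) with lactate, intervals that cover counting error only. The pooled intervals overlapped, and no group mean of Nqo1 was above that of sham. Fitted without the filter, its log2 fold change was -0.21 (SE 0.54) for vehicle and -0.80 (SE 0.51) for lactate against sham, with edgeR adjusted p of 0.904 and 0.355.

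Glutathione synthesis begins with glutamate-cysteine ligase, of which Gclc is the catalytic and Gclm the modifier subunit. Gclc stood at 14.1, 8.81, 15.5 and 14.7 CPM in sham, 18.5, 18.5, 20.3 and 17.5 CPM with vehicle, and 22.2, 26.6, 22.7 and 18.2 CPM with lactate. Both ischemic groups lay wholly above sham and overlapped each other, and sham mouse 2 was the lowest mouse. Group means were 13.3 ± 3.03, 18.7 ± 1.18 and 22.4 ± 3.43 CPM (SD, n = 4). The log2 fold change of Gclc was 0.79 (SE 0.19, edgeR adjusted p = 0.0144) for lactate against sham. With vehicle it was 0.53 (SE 0.19, edgeR adjusted p = 0.249), a 1.45-fold difference that did not pass.

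Gclm had group means of 5.32 ± 1.79, 6.22 ± 3.15 and 6.33 ± 1.78 CPM (SD, n = 4). Its highest mouse was vehicle mouse 1 at 10.6 CPM and its lowest was sham mouse 3 at 3.12 CPM, with full overlap of the groups. The log2 fold change was 0.28 in both comparisons with sham (SE 0.35 for vehicle and 0.28 for lactate, edgeR adjusted p = 0.787 and 0.555). Without vehicle mouse 1 the value for vehicle against sham was -0.12, so its sign rested on that mouse.

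Slc7a11 encodes the light chain of the cystine-glutamate exchanger, which brings in the cystine used for glutathione. Sham mice had 22.3, 18.3, 22.5 and 21.8 CPM, vehicle-treated mice had 8.06, 21.9, 16.8 and 26.7 CPM, and lactate-treated mice had 23.0, 43.5, 39.6 and 27.9 CPM. All lactate-treated mice were above all sham mice, the lowest only just. The vehicle group spread on both sides of sham, with mouse 1 at the bottom, and mouse 4 of that group was above lactate mouse 1. Group means were 21.2 ± 1.99, 18.4 ± 7.97 and 33.5 ± 9.62 CPM (SD, n = 4). The log2 fold change of Slc7a11 was 0.69 (SE 0.19, edgeR adjusted p = 0.0285) with lactate and -0.18 (SE 0.28, edgeR adjusted p = 0.837) with vehicle, both against sham. For lactate against vehicle it was 0.86 (SE 0.32), with an unadjusted edgeR p of 0.02 and an adjusted p of 0.519, and it was 0.61 without vehicle mouse 1 and 0.62 without vehicle mice 1 and 2. The call against sham was close to the threshold: without any one of the 4 sham mice the adjusted p lay between 0.0597 and 0.0701, and it was 0.081 without lactate mouse 2, 0.0842 without lactate mouse 3 and 0.148 in 1 fit of all 12 mice.

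Srxn1, sulfiredoxin, repairs peroxiredoxins whose catalytic cysteine has been overoxidised. It had 53.0, 44.5, 56.8 and 49.0 CPM in sham, 102.1, 92.2, 88.1 and 90.2 CPM with vehicle, and 115.2, 178, 110.6 and 75.8 CPM with lactate. The vehicle group was tight (CV 6.63%) and the lactate group wide (CV 35.4%), with lactate mouse 2 the highest and lactate mouse 4 below every vehicle-treated mouse. Both ischemic groups were nonetheless above all sham mice, with means of 93.2 ± 6.18 and 119.9 ± 42.5 CPM against 50.8 ± 5.29 CPM (SD, n = 4). The log2 fold change of Srxn1 was 0.91 (SE 0.13, edgeR adjusted p = 0.00309) for vehicle and 1.27 (SE 0.20, edgeR adjusted p = 0.00176) for lactate against sham. Between the ischemic groups it was 0.34 (SE 0.21, edgeR adjusted p = 0.669).

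Txnrd1, the cytosolic thioredoxin reductase, was not called in any comparison. Its means were 35.3 ± 3.20, 39.6 ± 7.45 and 41.2 ± 7.23 CPM (SD, n = 4), the groups overlapped, and the log2 fold change against sham was 0.20 (SE 0.17, edgeR adjusted p = 0.671) for vehicle and 0.25 (SE 0.15, edgeR adjusted p = 0.3) for lactate. Sqstm1, the autophagy receptor p62 that binds Keap1, had means of 280.5 ± 18.1, 279.4 ± 4.55 and 286.3 ± 19.3 CPM (SD, n = 4). Its log2 fold change was 0.03 (SE 0.11, edgeR adjusted p = 0.936) for vehicle and 0.06 (SE 0.09, edgeR adjusted p = 0.721) for lactate against sham, the smallest in size among the 8 members tested in each of these comparisons.

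Osgin1, an oxidative stress-induced growth inhibitor, had few counts. There were 1, 3, 4 and 1 counts in the sham mice, 0, 10, 11 and 6 in the vehicle-treated mice, and 12, 11, 6 and 10 in the lactate-treated mice. All lactate-treated mice lay above all sham mice, while vehicle mouse 1 had no count, which allows a level of up to 0.281 CPM. Pooled by group, Osgin1 stood at 0.281 CPM (95% exact Poisson interval 0.129 to 0.533) in sham, 0.812 CPM (0.535 to 1.18) with vehicle and 1.22 CPM (0.868 to 1.67) with lactate, again with counting error only. Osgin1 was not tested against sham under the filter. Without the filter its log2 fold change was 1.58 (SE 0.81, edgeR adjusted p = 0.438) for vehicle and 2.04 (SE 0.55, edgeR adjusted p = 0.0253) for lactate. Between the ischemic groups, where it was tested, it was 0.50 (SE 0.65, edgeR adjusted p = 0.852).

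**Figure D2:**
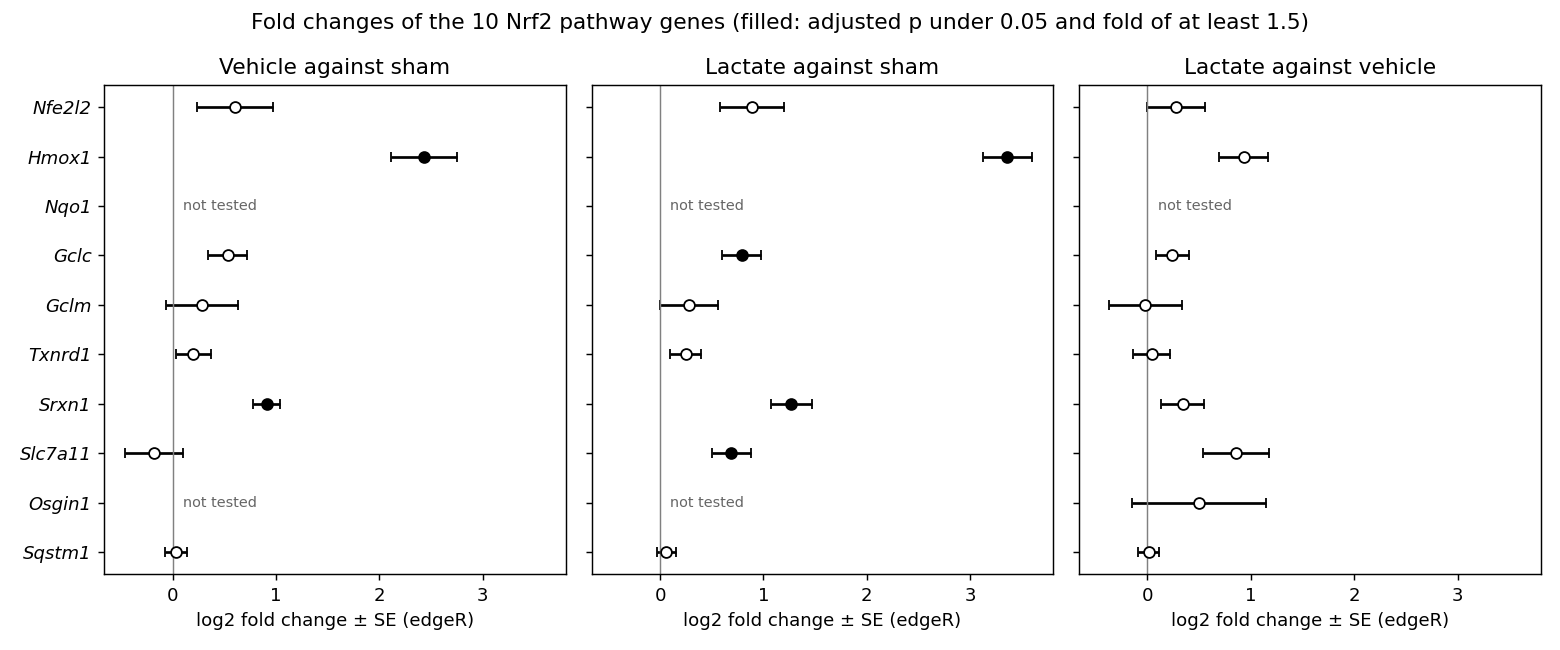
Log2 fold change ± SE (horizontal axis, edgeR) of the 10 genes in the 3 comparisons, with filled points for an adjusted p under 0.05 and a fold of at least 1.5. Hmox1 and Srxn1 are filled in both comparisons with sham, Gclc and Slc7a11 only with lactate in place of vehicle, and no point is filled for lactate against vehicle.

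For vehicle against sham, 2 of the 8 members that reached the filter were called higher and 0 lower, while 1.29% of all 17019 genes tested were called higher and 0.182% lower. With an unadjusted edgeR p under 0.05 and the same fold, 2 members were higher and 0 lower, against 6.5% of all genes higher and 3.01% lower. DESeq2, with an adjusted p and the same fold, called 2 members higher and 0 lower, and 2.26% of all genes higher and 0.4% lower. Without overlap of the groups, 3 members (Hmox1, Gclc and Srxn1) lay above sham, against 4.14% of the genes tested. The members' median log2 fold change was 0.41, and 7 of 8 were above 0, while the median over all genes was 0.00. Without vehicle mice 1 and 2 the same count of 2 was called. Of all genes tested, 102 had a log2 fold change at least as large as that of Hmox1.

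For lactate against sham, 4 of 8 members were called higher and 0 lower, where 7.88% of 17262 genes were called higher and 2.52% lower. With an unadjusted edgeR p under 0.05 and the same fold, 5 members were higher, Nfe2l2 being the addition, and 0 were lower, against 11.9% and 5.65% of all genes. DESeq2, with an adjusted p and the same fold, called 4 members higher and 0 lower, and 7.87% of all genes higher and 2.66% lower. Of the 8 members tested, 5 lay above sham without overlap (Nfe2l2, Hmox1, Gclc, Srxn1 and Slc7a11), where 10.4% of the genes tested did. The median log2 fold change of the members was 0.74 against -0.03 over all genes, and all 8 were above 0. Both comparisons share the 4 sham mice, so their values stand side by side and are not independent. That Gclc and Slc7a11 passed for lactate and not for vehicle does not show that the groups differed, and the direct comparison follows.

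For lactate against vehicle, edgeR called 0 of the 9 members tested in either direction, and 0% of 17419 genes higher and 0.00574% lower. DESeq2, with an adjusted p and the same fold, also called 0 members, and 0.287% of all genes higher and 0.0517% lower. With an unadjusted edgeR p under 0.05 and the same fold, 2 members (Hmox1 and Slc7a11) were higher and 0 lower, where 3.76% of all genes were higher and 2.47% lower. Only Hmox1 lay above the vehicle group without overlap, against 2.99% of all genes. The median log2 fold change of the members was 0.28, against -0.03 over all genes, and 8 of 9 were above 0.

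**Figure D3:**
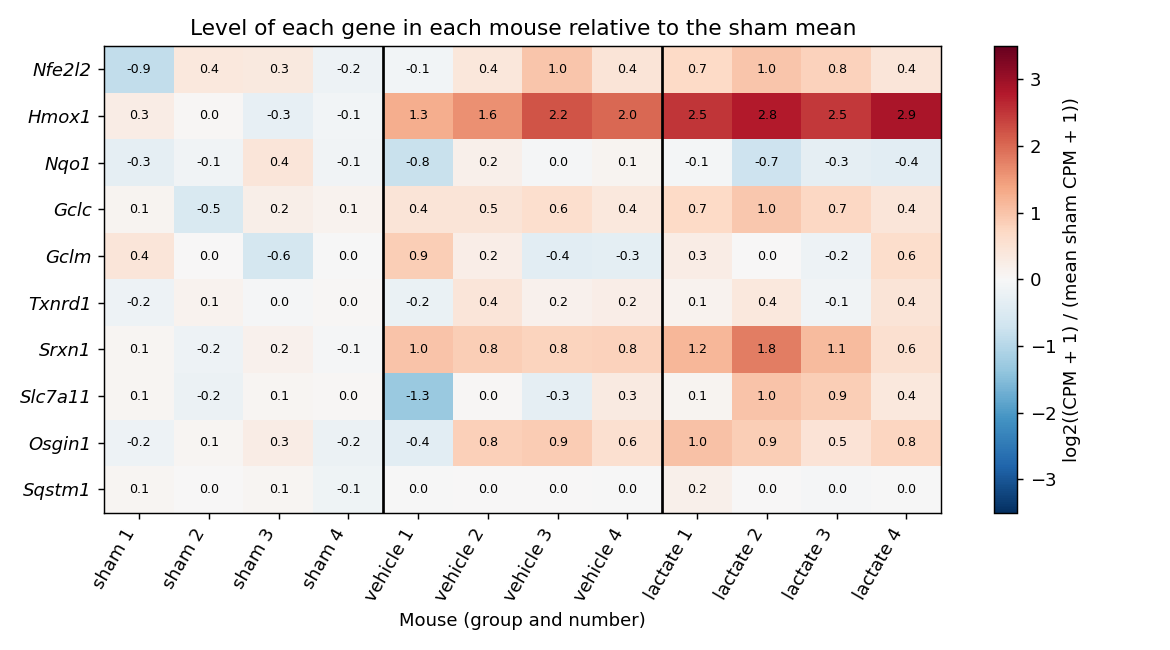
Level of each of the 10 genes (rows) in each of the 12 mice (columns) as log2((CPM + 1)/(mean sham CPM + 1)), with the value in each cell and black lines between sham, vehicle and lactate. The rows of Hmox1, Srxn1 and Gclc are positive in all 8 ischemic mice, and vehicle mouse 1 is low for Slc7a11 and high for Gclm.

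The genes did not move as one within a group. Vehicle mouse 1 was the lowest of its group for 6 of the 10 genes, Hmox1 and Slc7a11 among them, yet the highest for Srxn1 and Gclm. Lactate mouse 2 was the highest of its group for 4 genes and lactate mouse 3 the lowest for 5. By the likeness of log2(CPM + 1) over the 12 mice, the genes closest to Hmox1 among 12904 Ensembl genes were Timp1, an inhibitor of metalloproteinases (Pearson r = 0.981), the chemokine gene Ccl9 (r = 0.974) and Cd63, a tetraspanin of endosomes (r = 0.971). Those closest to Nfe2l2 were the actin regulators Pfn1 (r = 0.907) and Cfl1 (r = 0.885) and Hgs, which sorts receptors in endosomes (r = 0.882). These coefficients describe 12 mice in 3 groups that share the libraries and carry no test.

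Marker sums of other cell types are given beside these levels. Those of infiltrating myeloid cells were 0.557 to 3.56 CPM in sham, 8.80 to 71.8 CPM with vehicle and 19.7 to 41.1 CPM with lactate, so that both ischemic groups lay above sham and overlapped each other. In vehicle mice 1 to 4 the myeloid sums were 13.6, 52.3, 71.8 and 8.80 CPM, beside 4.68, 6.22, 9.83 and 8.51 CPM of Hmox1. Mouse 3 was thus the highest for both, while the lowest was mouse 4 for the myeloid sum and mouse 1 for Hmox1. In lactate mice 1 to 4 the myeloid sums were 23.3, 23.8, 41.1 and 19.7 CPM, beside 12.4, 15.1, 12.1 and 16.2 CPM of Hmox1, so that mouse 3 had the highest sum and the lowest Hmox1 and mouse 4 the reverse. Of the 6 myeloid markers, 2 reached the filter in the fit of vehicle with sham (S100a8 and S100a9) and 3 in that of lactate with sham (Retnlg being the addition), all through the ischemic mice, which all but fixes their direction. Ly6g and Ngp stayed near 0 in all groups, and Ccr2 had means of 0.559, 0.564 and 1.56 CPM in sham, vehicle-treated and lactate-treated mice. In mice 1 to 4, Ccr2 stood at 1.59, 0.518, 0 and 0.147 CPM with vehicle and 0.135, 1.56, 1.32 and 3.25 CPM with lactate. Lactate mouse 4 was highest of its group for both Ccr2 and Hmox1, while vehicle mouse 1 was highest for Ccr2 and lowest for Hmox1. In lactate mouse 3, S100a8 and S100a9 made up 19.65 and 16.48 of the 41.1 CPM summed. Whether these markers and Hmox1 go together was not tested.

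The astrocyte list summed to 591.7 to 889.4 CPM in sham, 793.6 to 871 CPM with vehicle and 959.7 to 1014 CPM with lactate. Gfap was the 1 of its 6 genes called, at a log2 fold change of 1.64 (edgeR adjusted p = 0.0201) with vehicle and 2.47 (edgeR adjusted p = 1.99e-06) with lactate against sham. The other 5 summed to 537.1 to 815.7 CPM in sham, 615.5 to 747.1 CPM with vehicle and 626.2 to 766.7 CPM with lactate, with overlap of all groups. Choroid plexus markers summed to 1.36 to 5.41 CPM in sham and 10.3 to 19.3 CPM with lactate, without overlap, and to 4.26 to 1838 CPM with vehicle, the highest being mouse 2. Of these, Ttr was called for lactate against sham at a log2 fold change of 3.25 (edgeR adjusted p = 9.5e-05), having reached the filter through the lactate-treated mice.

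Endothelial markers summed to 151.7 to 159 CPM in sham, 133.7 to 184.5 CPM with vehicle and 172.4 to 218.7 CPM with lactate, where Ly6c1 was called higher (0.86) and Slco1a4 lower (-1.70) for lactate against sham on the log2 scale. Neuronal sums were 4315 to 4511, 3509 to 5773 and 3830 to 4318 CPM in sham, vehicle-treated and lactate-treated mice, and no neuronal marker was called by edgeR in these comparisons. Microglial sums were 202.4 to 217.3, 119.1 to 195.9 and 186.3 to 207.7 CPM, with P2ry12 called lower against sham in both ischemic groups (-1.01 with vehicle and -1.10 with lactate) and Cx3cr1 with vehicle (-1.21). Blood sums were 560.4 to 633.1, 332.6 to 500.4 and 375.3 to 498.8 CPM, in the same order of groups, with Hbb-bt called lower for lactate against sham (-0.61), as was the oligodendrocyte marker Mog (-0.60). No marker was at 0 in every mouse. The part of these cells in the levels of Hmox1 and the other members was not tested.

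The wider pathway was covered by 57 further genes in 6 lists: regulators and partners of Nrf2, glutathione enzymes, thioredoxins and peroxiredoxins, enzymes that supply NADPH, heme and iron genes, and detoxification enzymes. For vehicle against sham, edgeR called 3 of 53 tested higher and 0 lower, and for lactate against sham 4 of 52 higher and 1 lower. These counts are 5.66% higher for vehicle against sham, where 1.29% of all genes were, and 7.69% higher and 1.92% lower for lactate against sham, near the 7.88% and 2.52% of all genes. With an unadjusted edgeR p under 0.05 and the same fold, 4 were higher and 1 lower for vehicle against sham, where 6.5% and 3.01% of all genes were. For lactate against sham 5 were higher and 1 lower, where 11.9% and 5.65% of all genes were. For lactate against vehicle, 0 of 53 were called in either direction by edgeR, and also 0 at the unadjusted p and by DESeq2. The median log2 fold changes of the further genes were 0.03, 0.03 and 0.02 in the 3 comparisons. The genes that passed against sham included the small Maf genes Mafk and Maff, which encode partners of Nrf2 that also serve Bach1, and Txnip, which encodes a protein that binds and inhibits thioredoxin.

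Mafk had 4.35 to 8.31 CPM in sham, 13.2 to 21.3 CPM with vehicle and 11.5 to 13.8 CPM with lactate. Its log2 fold change was 1.37 (SE 0.25, edgeR adjusted p = 0.0145) for vehicle and 1.10 (SE 0.20, edgeR adjusted p = 0.0042) for lactate against sham. Maff rose from 0 to 2.58 CPM in sham to 3.88 to 8.96 CPM with vehicle and 2.57 to 5.87 CPM with lactate, where lactate mouse 1 and sham mouse 3 were level. Its log2 fold change was 2.75 (SE 0.59, edgeR adjusted p = 0.0366) and 2.10 (SE 0.56, edgeR adjusted p = 0.0274). Over the alternative fits that tested Maff, the value ran from 2.35 to 3.68 for vehicle and from 1.7 to 3.02 for lactate. Maff reached the filter through the ischemic mice, with 1 sham mouse over 1 CPM, which all but fixes its direction. Without sham mouse 2, 3 or 4 the adjusted p of Mafk for vehicle was 0.0578, 0.0693 and 0.0513. That of Maff for vehicle lay between 0.0542 and 0.138 without sham mouse 1, 2 or 4 or vehicle mouse 1 or 3, and that of Maff for lactate between 0.051 and 0.0781 without sham mouse 2 or 4 or lactate mouse 2 or 3.

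Txnip stood at 3.57 to 5.80 CPM in sham, 11.1 to 12.95 CPM with vehicle and 7.03 to 12.4 CPM with lactate, with log2 fold changes of 1.42 (SE 0.21, edgeR adjusted p = 0.00387) and 1.12 (SE 0.24, edgeR adjusted p = 0.00963). Slc3a2, the heavy chain that carries Slc7a11 to the membrane and serves other amino acid transporters, was called for lactate against sham at 0.70 (SE 0.13, edgeR adjusted p = 0.0048) and had 0.49 (SE 0.16, edgeR adjusted p = 0.195) for vehicle. Slc40a1, which encodes the iron exporter ferroportin, was the 1 gene called lower for lactate against sham, at -1.28 (SE 0.38, edgeR adjusted p = 0.043), from 2.62 ± 0.792 CPM in sham to 1.06 ± 0.470 CPM (SD, n = 4). Slc40a1 reached the filter through the sham mice, where it was high, and this call was lost without sham mouse 1, 3 or 4 or lactate mouse 1, 2 or 4, with adjusted p from 0.0504 to 0.115.

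The most abundant genes of each list did not pass. Mean CPM of the ferritin heavy chain Fth1 was 2145 in sham, 2355 with vehicle and 2423 with lactate, and that of the light chain Ftl1 was 738.6, 832.2 and 937.4. Ftl1 for lactate against sham had a log2 fold change of 0.38 (SE 0.08, edgeR adjusted p = 0.00957), a 1.30-fold difference under the fold limit. Sod1 and Sod2 (superoxide dismutases), Gpx4 and Gstp1 (glutathione enzymes), Prdx2 and Prdx5 (peroxiredoxins), Taldo1 and Tkt (pentose phosphate enzymes), and Nfe2l1 and Rbx1 (a relative of Nrf2 and a part of the Keap1 ubiquitin ligase) were not called in any comparison. Keap1 and Bach1 fall outside the rule for named genes and were picked once their values were known. Keap1 had 53.4 ± 9.20, 47.2 ± 10.6 and 41.2 ± 2.57 CPM (SD, n = 4), with edgeR adjusted p of 0.796 and 0.115 against sham. Bach1 had 0.648 ± 0.131, 1.64 ± 0.534 and 1.37 ± 0.546 CPM (SD, n = 4), and its log2 fold change for vehicle against sham was 1.35 (SE 0.38, edgeR adjusted p = 0.13), where it reached the filter through the vehicle-treated mice alone.

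**Figure D4:**
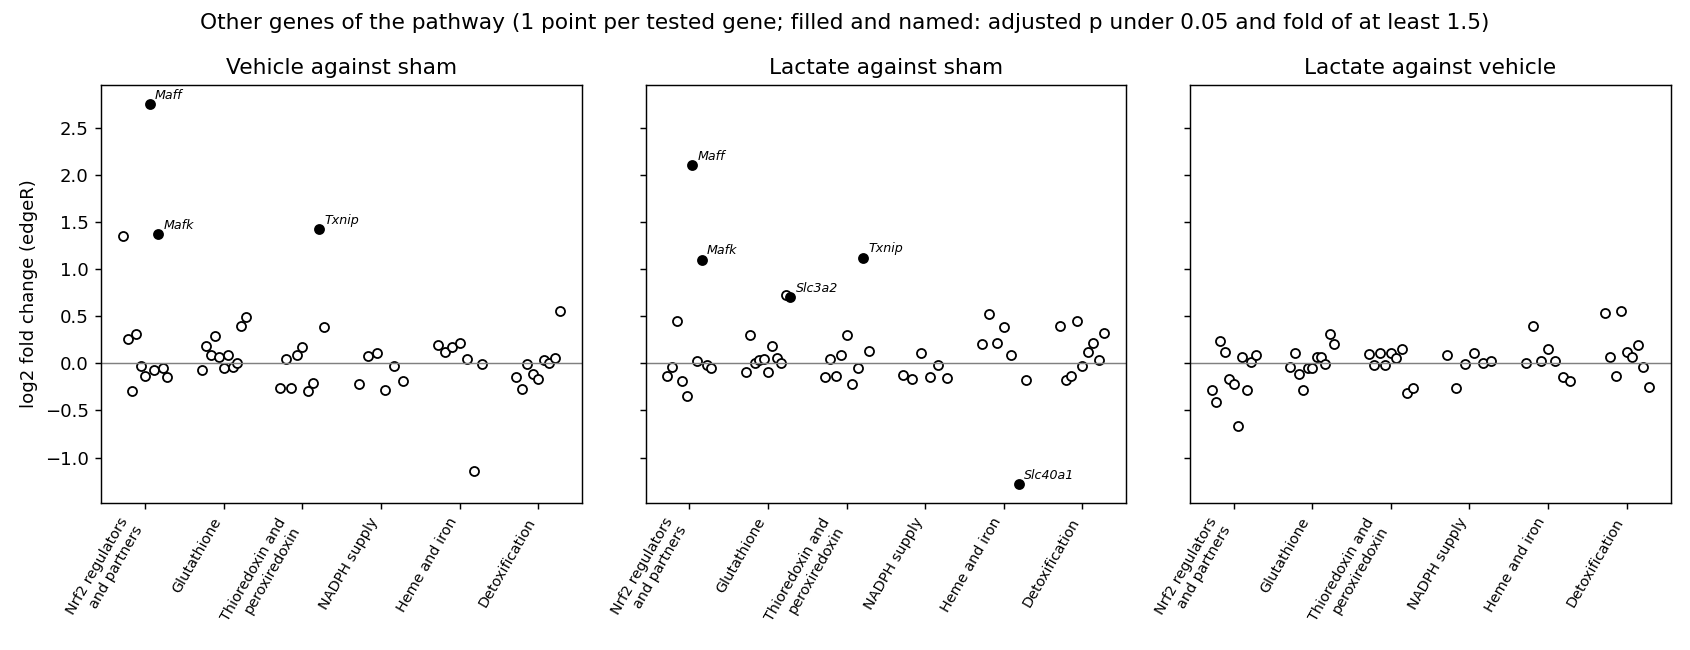
Log2 fold change (vertical axis, edgeR) of the further pathway genes that reached the filter, 1 point per gene, by list and comparison. Filled and named points have an adjusted p under 0.05 and a fold of at least 1.5, and most points lie near 0 while Maff, Mafk and Txnip lie above 1 against sham.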

How the data were processed

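Brain RNA of 12 mice was read as nanopore cDNA. Per the methods, short, low-quality and ribosomal reads were dropped by the authors, full-length reads were mapped with minimap2, consensus isoforms were polished with pinfish, and transcripts were compared with the reference annotation by gffcompare. The authors deposited raw counts per gene and the same counts as CPM of each library total. The submitters' processing notes name GRCm38 and DESeq 1.10.1. The gene counting method is not given in the sources used here. Columns with the authors' own P values, fold changes and regulation calls were not used. The table held 31208 genes and 4 lines without a gene, which were left out and carried 0 counts, and 0 per-sample columns were unused.

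Counts were tested by the quasi-likelihood method of edgeR 4.0.16, run under R 4.3.3 (TMM factors, only the 2 groups compared, at least 1 CPM in at least 4 of 8 mice, Benjamini-Hochberg adjustment over all genes tested). A call needed an adjusted p under 0.05 and a fold of at least 1.5. SE values are the size of the log2 fold change divided by the square root of F. The scripts were tested on simulated data. The alternatives were DESeq2 1.42.0, RLE size factors, no filter, 1 fit of all 12 mice, a replicate block, only Ensembl genes, other call rules and leaving out each mouse, and, chosen after seeing the data, leaving out vehicle mice 1 and 2. Of 22036 Ensembl identifiers, 22022 were found in GENCODE M21. Python 3.11.15, numpy 2.4.6, pandas 2.3.3 and matplotlib 3.10.9 were used.

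The 10 members, the pathway lists and the marker lists were chosen with earlier results of these data known. Named are all members, pathway genes called in at least 1 comparison, the 2 genes of highest mean CPM per list, and the 3 Ensembl genes nearest to Hmox1 and to Nfe2l2. Nothing in the labels says more of the replicates than a number per mouse. The p-values of the main fits set a group difference against the spread between samples within the 2 groups compared.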

Additional observations from a re-analysis of the deposited data

Results flagged for a closer look

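Of the 30 groups of 4 mice (10 genes in 3 groups), 1 held a mouse far from the others of its group by Dixon's test at the 95% level. It was Slc7a11 in sham mouse 2, at 18.28 CPM, where the gap to the nearest mouse was 0.833 of the range, just over the critical value. Chance alone sets off this test in about 1 group in 20, so 1 of 30 is not above what it gives. Without sham mouse 2 the difference of Slc7a11 between lactate and sham missed the threshold, as it did without each of the other sham mice.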

How the results depend on the processing

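Of 392 alternative values of the fold changes of members that reached the filter, 363 kept their direction and side of the threshold, 18 turned direction, 7 lost a call and 4 gained one. The values of Osgin1 against sham, where it did not reach the filter, are not among these. With no filter Osgin1 passed for lactate against sham (2.04, edgeR adjusted p = 0.0253), so that 5 members were called higher. In that fit 1674 of 27533 genes were called higher and 578 lower. Calls of Hmox1 and Srxn1 against sham in both ischemic groups and of Gclc for lactate against sham were kept in every alternative run. The 7 lost calls are all Slc7a11 for lactate against sham. The adjusted p of Hmox1 for lactate against vehicle ran from 0.0671 (DESeq2) to 0.757. With an unadjusted p, 2 members were called for lactate against vehicle, and 1 other pathway gene was lower for vehicle against sham. Other pathway genes called lower for lactate against sham numbered 0 in 1 fit of all 12 mice and 0 with only Ensembl genes. With 1 mouse left out, other pathway genes called higher for vehicle against sham ranged from 1 to 3 and lower for lactate against sham from 0 to 1.

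The values that turned direction all belong to uncalled differences. Without vehicle mice 1 and 2, Gclm was -0.41 and Slc7a11 0.07 for vehicle against sham, and Nfe2l2 was -0.01 and Gclm 0.69 for lactate against vehicle. Gclm for lactate against vehicle was 0.01 in 1 fit of all 12 mice, 0.06 with the replicate block and 0.03 with only Ensembl genes, and Sqstm1 was -0.01 with no filter. With 1 mouse left out, the range for vehicle against sham was -0.12 to 0.47 for Gclm, -0.41 to 0.07 for Slc7a11 and -0.01 to 0.06 for Sqstm1. For lactate against vehicle it was -0.20 to 0.40 for Gclm, -0.07 to 0.15 for Txnrd1 and -0.04 to 0.04 for Sqstm1. The cause was not tested.

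Deviations of same-numbered mice of different groups had correlations across genes from -0.14 to 0.153, over 0.1 in 3 of 12 pairs, and the mice were treated as unpaired. With the replicate block the genes called for vehicle against sham went from 219 higher and 31 lower to 179 and 19. Nfe2l2 for lactate against sham then had 0.95 with an edgeR adjusted p of 0.0368, a call that the unpaired fit did not give. By DESeq2, 50 genes were higher and 9 lower for lactate against vehicle, against 0 and 1 by edgeR. Depth limits Nqo1 and Osgin1, which had at most 13 counts in any mouse.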
